A study of Mus musculus with 16 samples.

Results

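Cytosolic ribosomal proteins were followed in 3T3-L1, a mouse preadipocyte line of fibroblast origin, with and without dexamethasone (dex), a synthetic glucocorticoid that is a standard component of the adipogenic cocktail. The family was picked with earlier results of these data known, and its members were then taken by gene symbol: every probe of the array that named 1 gene, and whose gene was an Rpl or Rps gene, Rplp0 or Rpsa, was taken, without ribosomal protein kinases and pseudogenes. Ribosomal protein genes have many processed pseudogenes of near-identical sequence, and whether these probes also bind such copies was not tested. This gave 77 of the 38467 probes and 40 of the 19640 genes that had such a probe, with 57 probes of 28 large subunit genes and 20 probes of 12 small subunit genes. Probes were spread unevenly: 26 genes had 1 probe, Rpl13a had 21 and no other gene had more than 4. A further 40 probes named a ribosomal protein gene together with another gene and were left out. Among these were the probes of Rplp1, Rpl5, Rpl11, Rps4x, Rps4l and Rps27, and no probe named Rplp2, Rps27a or Rpl10l alone.

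The 4 groups were cells given DMSO, the vehicle, for 2 h, dex for 2 h, DMSO for 36 h and dex for 36 h. Each had 4 samples that the series' design text calls biological replicates. No other agent is named. Neither the dose of dex nor the state of confluence is given in the sources used here. Total RNA was reverse transcribed, labelled with Cy5 and hybridised beside a Cy3-labelled pool of the samples, with no dye swap. Each value is the log ratio of a sample to that pool, so values compare samples for 1 probe and never levels between genes. The base is taken as 2, as limma gives it, because it is not stated in the sources used here. Differences between groups were tested with limma over all 16 arrays and called at an adjusted p (Benjamini-Hochberg over all 38467 probes) under 0.05, and every adjusted p below is of that kind.

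Proteins and ribosomal RNA make up both subunits of the ribosome, the small one decoding the message and the large one joining amino acids. Mammalian ribosomal protein messages begin with a run of pyrimidines at the cap, the terminal oligopyrimidine or TOP tract, through which their translation is set by mTOR signalling and the protein LARP1. Growing cells spend much of their transcription on ribosomes, and Myc is a known activator of this programme. Message level and protein output of these genes can therefore part, and only the message was measured here.

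The TOP tract is a sequence feature of this family that the choice by symbol did not use. The following stretches run from 10 bases before to 20 bases after the annotated start (RefSeq, GRCm38.p6, strand of the gene, 5′ to 3′), with the longest pyrimidine run that reaches within 10 bases of the start in capitals. They are shown to set 3 genes that were called higher with dex at 36 h (Rpl27a, Rpl13a and Rps9) beside 4 that were not (Rpl35, Rpl15, Rpl14 and Rps18). The coordinates are chr7:109519185-109519214 (plus strand) for Rpl27a, chr7:45128726-45128755 (minus) for Rpl13a, chr7:3704031-3704060 (plus) for Rps9, chr2:39005112-39005141 (minus) for Rpl35, chr14:18270967-18270996 (minus) for Rpl15, chr9:120571507-120571536 (plus) for Rpl14 and chr17:33955646-33955675 (minus) for Rps18.
Rpl27a: cgtgagCTCCTCCCTTTTCCCTTTCTgcca
Rpl13a: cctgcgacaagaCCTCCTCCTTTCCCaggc
Rps9: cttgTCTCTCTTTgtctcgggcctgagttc
Rpl35: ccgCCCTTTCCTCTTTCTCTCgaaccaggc
Rpl15: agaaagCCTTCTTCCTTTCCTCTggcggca
Rpl14: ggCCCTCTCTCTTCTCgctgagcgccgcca
Rps18: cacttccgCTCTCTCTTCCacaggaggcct
The runs were 20, 14 and 9 bases long in Rpl27a, Rpl13a and Rps9, and 18, 17, 14 and 11 bases in Rpl35, Rpl15, Rpl14 and Rps18.

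A start window was found for 32 of the 40 genes. A pyrimidine run of at least 8 bases that reached within 10 bases of the annotated start was present in 15 of the 32 (46.9%), against 4259 of 27025 genes in the whole table (15.8%). A C at the annotated start itself followed by 4 pyrimidines was present in 7 (21.9%), against 3.01% of all genes. Annotated starts can lie some bases from the start that cells use: the window of Rplp0, the gene with the largest difference, held no such run. The run was present in 4 of the 6 called genes with a window (Rpl27a, Rpl13a, Rps9 and Rpl4) and in 11 of the 26 others. That of Rpl4, 14 bases from position -18, ended before the annotated start, as did those of Rpl31, Rps15a and Rps27l. In the window from 250 bases before to 50 after the start, searched on both strands, CCGGAAG (the core bound by ETS factors such as GABP) was present in 12 of 32 genes (37.5%, against 9.93% of all), ATGGCG (the core of the YY1 site) in 13 (40.6%, against 10.2%) and GGGCGG (the GC box) in 22 (68.8%, against 38.2%). TATAAA was present in 5 (15.6%, against 15.7%) and CACGTG, the E-box bound by Myc and other factors, in 4 (12.5%, against 8.09%).

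At 36 h, 10 of the 77 probes were higher with dex than with DMSO and 0 were lower (limma; 25 at an unadjusted p under 0.05, against 21.4% of all probes). The 10 probes (13.0%) lay in 7 genes, 5 of the large subunit (Rplp0, Rpl4, Rpl27a, Rpl8 and Rpl13a) and 2 of the small (Rps3 and Rps9). Of all probes on the array, 8.83% were called at 36 h, 5.09% higher and 3.74% lower, and of all genes 11.7% had at least 1 called probe, against 17.5% here. The differences of the called probes were modest, from 1.29-fold for Rps3 to 1.72-fold for Rplp0. The median difference of the 77 probes was 0.15 on the log2 scale, against -0.0043 for all probes, whose 5th to 95th percentiles were -0.40 to 0.44. It was above 0 for 61 probes (79.2%, against 48.9% of all). The 21 probes of Rpl13a weigh on these values: without them the median of the other 56 probes was 0.07, and with 1 value per gene it was 0.05, with 28 of 40 genes above 0 (70.0%, against 49.7% of all genes). The shift of the family as a whole was thus small next to the spread of single probes, and most members were not called.

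**Figure D1:**
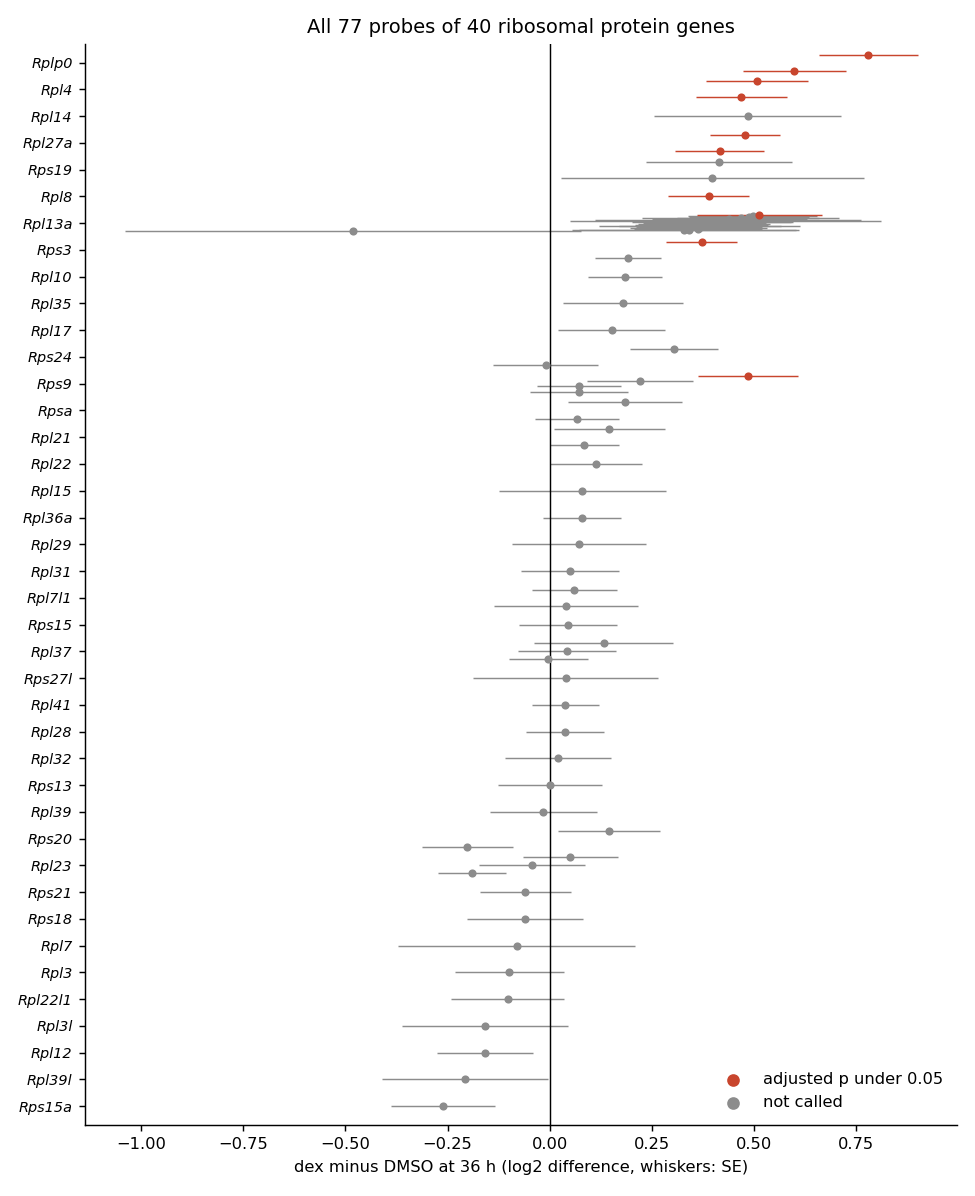
Difference between dex and DMSO at 36 h (x axis, log2) for each of the 77 probes, in 1 row per gene ordered by the median of its probes; whiskers are the SE and red points are probes with an adjusted p under 0.05 (limma). The 10 red probes lie to the right of 0, the grey ones lie on both sides with more to the right (61 of all 77 probes are above 0), and 1 Rpl13a probe stands far to the left at -0.48.

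Rplp0, the base of the acidic stalk of the large subunit that recruits elongation factors, showed the largest difference. Its log ratio was -0.36, -0.28, -0.30 and -0.32 on the DMSO 36 h arrays (replicates 1 to 4) and 0.56, 0.33, 0.75 and 0.22 on the dex 36 h arrays. No dex array reached down to a DMSO array, and replicates 3 and 1 were the highest of the dex group. The difference was 0.78 ± 0.12 (SE, n = 4 against 4; limma adjusted p = 6.05e-04; 95% interval 0.52 to 1.04), or 1.72-fold. Its second probe read -0.22, -0.17, -0.15 and -0.13 with DMSO and 0.52, 0.30, 0.78 and 0.14 with dex, a difference of 0.60 ± 0.13 (limma adjusted p = 0.00719). Both probes of Rplp0 thus ranked the 4 dex arrays alike and were called.

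Rpl27a, a large subunit protein, had log ratios of -0.31, -0.26, -0.21 and -0.29 on the DMSO 36 h arrays and 0.25, 0.11, 0.36 and 0.12 on the dex 36 h arrays. The groups did not overlap, and the difference was 0.48 ± 0.09 (SE; limma adjusted p = 0.00197), or 1.39-fold. Its second probe was also called, at 0.42 ± 0.11 (limma adjusted p = 0.0269). The first probe of Rpl27a kept its call whichever array was left out, while the second lost it without dex 36 h replicate 1 or 3 or without any 1 of the DMSO 36 h arrays (limma adjusted p = 0.0546 to 0.0945).

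Rpl4, whose extended loop lines the peptide exit tunnel, read -0.17, -0.17, -0.03 and -0.12 with DMSO at 36 h and 0.52, 0.10, 0.77 and 0.15 with dex. The dex values of Rpl4 fell into a high pair (replicates 1 and 3) and a low pair (2 and 4), all above the DMSO arrays. The difference was 0.51 ± 0.12 (SE; limma adjusted p = 0.0186), or 1.42-fold, and the second probe gave 0.47 ± 0.11 (limma adjusted p = 0.0157). The first Rpl4 probe missed the threshold without dex 36 h replicate 1 or 3 or DMSO 36 h replicate 1 or 2 (differences 0.38 to 0.49, limma adjusted p = 0.052 to 0.0737), the second without dex 36 h replicate 1 or DMSO 36 h replicate 2 (0.0664 and 0.0619).

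Rpl8, a large subunit protein at the peptidyl transferase centre, was singled out after its values were seen. Its only probe read -0.29, -0.20, -0.04 and -0.14 with DMSO and 0.26, 0.02, 0.34 and 0.27 with dex, a difference of 0.39 ± 0.10 (SE; limma adjusted p = 0.0233). The lowest dex array of Rpl8, replicate 2, lay just above the highest DMSO array. It was called without dex 36 h replicate 2 or DMSO 36 h replicate 3 but not when another 36 h array was left out (limma adjusted p = 0.0513 to 0.0857).

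Of the small subunit, Rps3, which lines the entry of the mRNA channel, read -0.30, -0.53, -0.19 and -0.28 with DMSO at 36 h and 0.09, -0.02, 0.08 and 0.04 with dex. The dex arrays of Rps3 lay closer together than those of the other called genes, and the groups did not overlap. The difference was 0.37 ± 0.09 (SE; limma adjusted p = 0.0141), or 1.29-fold, while its other probe gave 0.19 and was not called (limma adjusted p = 0.169). The Rps3 call was lost without dex 36 h replicate 1 (0.36, limma adjusted p = 0.0509) or DMSO 36 h replicate 2 (0.30, 0.0591).

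Rps9, a small subunit protein near the decoding site, read -0.28, -0.24, -0.19 and -0.15 with DMSO and 0.35, 0.18, 0.48 and 0.08 with dex, without overlap. This probe of Rps9 differed by 0.49 ± 0.12 (SE; limma adjusted p = 0.0219), but the other 3 probes gave 0.07 to 0.22 and none was called, so the 4 probes of this gene disagree in size. The Rps9 call was lost without dex 36 h replicate 1 or 3 or DMSO 36 h replicate 1, 2 or 3 (differences 0.42 to 0.49, limma adjusted p = 0.05 to 0.0836).

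**Figure D2:**
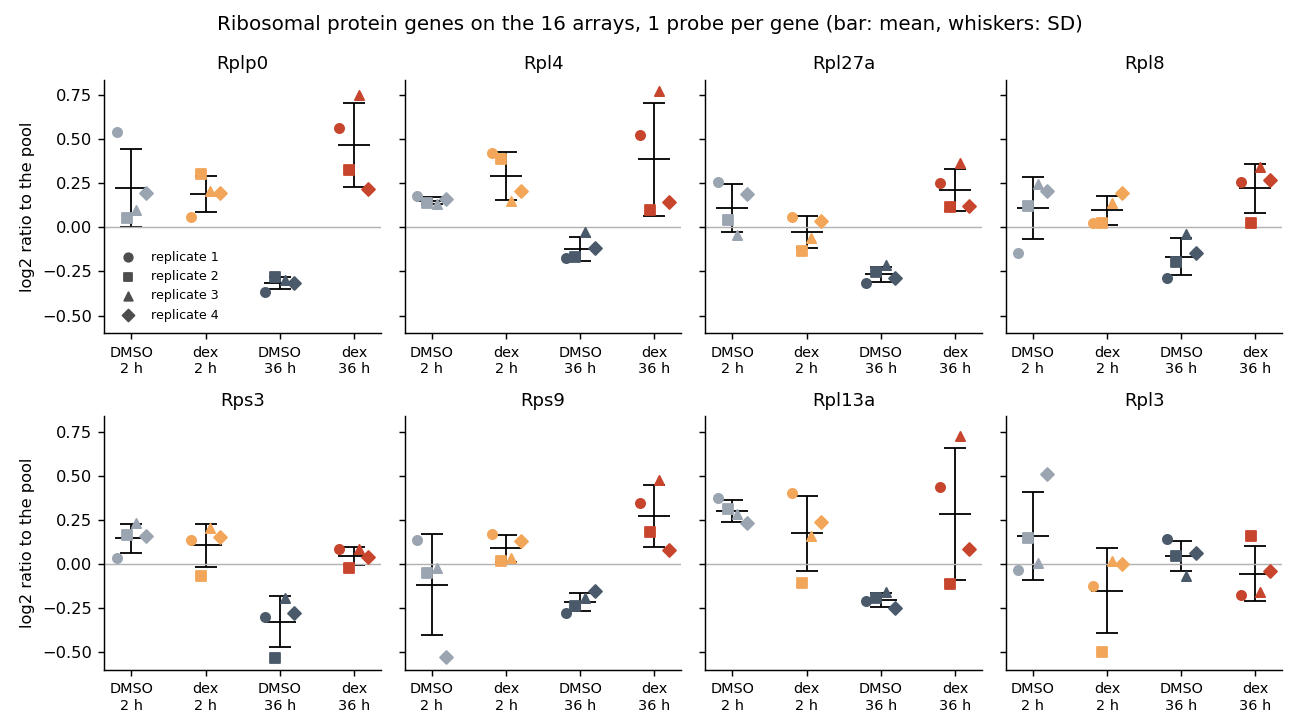
Log2 ratio to the pool (y axis) on each of the 16 arrays for 1 probe of Rplp0, Rpl4, Rpl27a, Rpl8, Rps3, Rps9, Rpl13a and Rpl3, by group (x axis); symbols mark replicates 1 to 4, bars the group mean and whiskers the SD. For Rplp0 the DMSO 36 h arrays sit between -0.36 and -0.28 and the dex 36 h arrays between 0.22 and 0.75.

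Rpl13a, a large subunit protein often used as a reference gene for normalisation, could be read on more probes than any other member, because the array carries a control set with 20 probes for each of 7 commonly used reference genes. The median of its 20 control probes was -0.135, -0.152, -0.130 and -0.128 on the DMSO 36 h arrays and 0.447, -0.118, 0.701 and 0.073 on the dex 36 h arrays. Replicate 2 of the dex group thus lay near the DMSO arrays, while replicates 1 and 3 were the highest. At 36 h, 19 of the 20 probes were above 0, with a median of 0.38 and a range of -0.48 to 0.51, and 1 was called. That probe of Rpl13a read -0.13, -0.17, -0.14 and -0.13 with DMSO and 0.57, 0.01, 0.78 and 0.13 with dex, a difference of 0.51 ± 0.15 (SE; limma adjusted p = 0.0477). Without dex 36 h replicate 1 or 3 it was 0.45 or 0.38 (limma adjusted p = 0.163 and 0.171), and its call was also lost without any 1 DMSO 36 h array and without 5 of the 8 arrays of 2 h (0.053 to 0.125). The Rpl13a probe with the smallest p over both dex contrasts, by which the gene is drawn, gave 0.49 ± 0.15 and was not called (limma adjusted p = 0.0522), and the mean of the Rpl13a probes gave 0.37 ± 0.16 (limma adjusted p = 0.201). The lone negative probe owed its -0.48 to a single value of -3.18 on dex 36 h replicate 1.

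The other 6 genes of this control set were set beside Rpl13a after the values had been seen, and probes of 1 gene are not replicates of a condition. Their median differences with dex at 36 h were -0.36 for Actb (beta-actin), -0.36 for B2m (the MHC class I light chain), -0.31 for Tbp, -0.29 for Sdha, -0.17 for Hprt and -0.02 for Ywhaz. Of the 20 probes, 15 were called lower for Actb, 6 for Sdha, 3 for B2m, 2 for Tbp, 1 for Hprt and 0 for Ywhaz (limma). From 2 to 36 h in DMSO the median was -0.30 for Rpl13a, -0.04 for Ywhaz and 0.11 to 0.25 for the others, and no probe of the set was called. Of all probes, 5.09% were called higher and 3.74% lower, but the 20 probes of a gene read 1 transcript on the same arrays. Their calls are not independent, so neither the single call of Rpl13a nor the 15 of Actb is read against those shares. The median SE of the probes was 0.17 for Rpl13a and 0.09 for Actb.

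**Figure D3:**
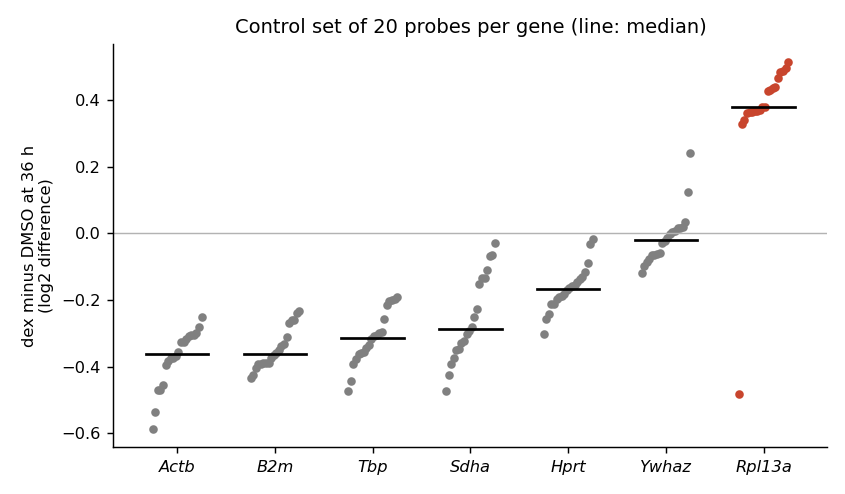
Difference between dex and DMSO at 36 h (y axis, log2) for the 20 control probes of each of 7 reference genes (x axis, ordered by median); points are probes and lines medians. Rpl13a (red, median 0.38) lies above 0 and Actb and B2m (medians -0.36) below it.

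The paralogs of ribosomal proteins, which replace or accompany the common form in some tissues, were not called at 36 h, nor were the parents. The differences at 36 h (log2 ± SE, limma adjusted p) were -0.10 ± 0.13 (0.807) for Rpl3, which lies at the peptidyl transferase centre, and -0.16 ± 0.20 (0.79) for Rpl3l, its striated muscle form. They were -0.08 ± 0.29 (0.966) for Rpl7 and 0.04 ± 0.18 (0.976) for Rpl7l1. For the RNA-binding Rpl22 and its paralog Rpl22l1 they were 0.11 ± 0.11 (0.682) and -0.10 ± 0.14 (0.805). The 95% intervals of these 6 genes ran from -0.70 at the lowest, for Rpl7, to 0.53 at the highest, also for Rpl7. For Rpl7 the interval thus leaves room for a change as large as those of the called genes other than Rplp0. The intervals of the others were narrower. Several of them, such as those of Rpl3l and Rpl7l1, still reached the size of some called differences. So did those of Rpl39l and Rps27l, given next. For these genes the missing call thus does not show a smaller change. Rpl39, of the exit tunnel, gave -0.02 ± 0.13 (0.993), its testis-enriched paralog Rpl39l -0.21 ± 0.20 (0.672), and Rps27l, a paralog of Rps27 induced by p53, 0.04 ± 0.23 (0.986). The late-assembling Rpl10 gave 0.18 ± 0.09 (limma adjusted p = 0.254). On the arrays themselves, Rpl3l and Rpl39l were the 2 members whose dex 36 h values all lay below their DMSO 36 h values. That is 2 of 77 probes, a smaller share than the 13.8% of all probes.

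Some uncalled members are named here after their values were seen, the first 2 because their differences were as large as those of called genes with a wider spread. Rpl14 gave 0.49 ± 0.23 (SE; limma adjusted p = 0.235) and Rps19, mutated in Diamond-Blackfan anaemia, 0.41 ± 0.18 (limma adjusted p = 0.188) and 0.40 on its other probe. Rps24 gave 0.30 ± 0.11 on 1 probe and -0.01 on the other. The lowest difference other than that of the Rpl13a probe was -0.26 ± 0.13 for Rps15a (limma adjusted p = 0.254). Dex and DMSO arrays at 36 h did not overlap for 19 of the 77 probes (24.7%, 17 higher and 2 lower), against 26.8% of all probes, of which 13% were higher and 13.8% lower. The members' share is thus near that of all probes, with more of it on the higher side. Without the probes of Rpl13a, 13 of 56 probes did not overlap.

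When the probes of each gene were averaged first, 5 of the 40 genes were called higher at 36 h and 0 lower, against 5.28% of all genes higher and 3.88% lower. These were Rplp0 at 0.69, Rpl4 at 0.49, Rpl27a at 0.45, Rpl8 at 0.39 and Rps3 at 0.28 (limma adjusted p between 3.46e-04 and 0.0234). Rpl13a and Rps9 were no longer called. The large and small subunits did not stand far apart: the median over genes was 0.06 for the 28 large subunit genes and 0.04 for the 12 small subunit genes. The 40 probes shared with other genes, which cover 34 ribosomal protein genes without a probe of their own, held 0 calls at 36 h (1 at an unadjusted p under 0.05, limma). Of these 40, 26 were above 0, with a median of 0.04.

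After 2 h of dex, 0 of the 77 probes were called, against 2.22% of all probes (limma). Only 4 reached an unadjusted p under 0.05, against 10.8% of all, and each was lower: Rpl3 at -0.31, Rpl36a at -0.21 and Rpl37 at -0.27 and -0.37. The arrays did not overlap for 1 probe, of Rpl37 (5.86% of all probes). The median difference was -0.01 and 35 of 77 probes were above 0 (45.5%, against 47.6% of all). Rplp0, the largest difference at 36 h, read 0.54, 0.05, 0.10 and 0.19 on the DMSO 2 h arrays and 0.06, 0.30, 0.20 and 0.19 on the dex 2 h arrays. The 2 groups of Rplp0 overlapped, with a difference of -0.03 ± 0.12 (SE; limma adjusted p = 0.959). Rpl4 gave 0.14 ± 0.12 (limma adjusted p = 0.745), Rpl27a -0.14 ± 0.09 (0.61) and Rps3 -0.04 (0.916).

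The difference between the 2 dex effects was tested directly. The effect at 36 h exceeded that at 2 h by 0.81 ± 0.17 for 1 probe of Rplp0 (SE; limma adjusted p = 0.0178) and by 0.62 ± 0.12 for 1 probe of Rpl27a (limma adjusted p = 0.0108). These were the 2 called probes of 77 (2.60%), against 2.4% of all probes, 1.47% in this direction. The second probes gave 0.57 for Rplp0 (limma adjusted p = 0.138) and 0.58 for Rpl27a (0.0641). For Rpl4, Rpl8 and Rps3 the effect is not shown to differ between the times (0.37, 0.40 and 0.41, limma adjusted p = 0.374, 0.194 and 0.111).

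**Figure D4:**
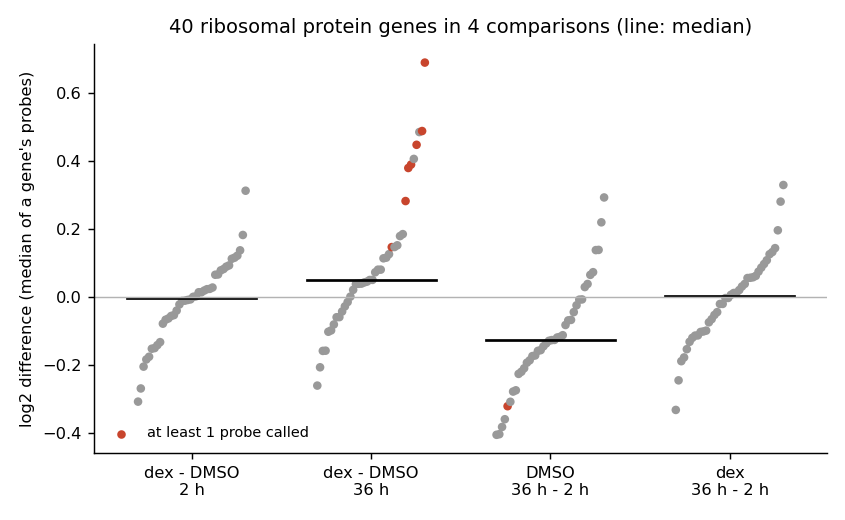
Log2 difference (y axis, median of a gene's probes) of the 40 genes in 4 comparisons (x axis), in rank order within each; red genes have at least 1 called probe and lines are medians over genes. The median was 0.05 for dex against DMSO at 36 h and -0.13 from 2 to 36 h in DMSO.

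In vehicle cells most members had lower values at the later time, though few passed the test. From 2 to 36 h in DMSO, 1 of 77 probes was called, an Rps3 probe that fell (1.30%, against 0.816% of all probes, 0.621% of them lower), and 18 reached an unadjusted p under 0.05, each lower (11.6% of all probes did). Only 11 of 77 probes were above 0 (14.3%, against 46.9% of all), and the median was -0.18, or -0.13 over genes, of which 8 of 40 were above 0 (45.6% of all gene means were). The DMSO 2 h and 36 h arrays did not overlap for 22 of the 77 probes, 21 of them lower (28.6%, against 10.5% of all, 6.44% of them lower). These 22 probes lay in 9 genes, and the many probes of Rpl13a weigh on the count. Without them, 11 of 56 probes did not overlap. Of the 40 shared probes, 4 were above 0, with a median of -0.11 and 0 calls (1 at an unadjusted p under 0.05, limma).

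Rps3 read 0.03, 0.16, 0.23 and 0.16 on the DMSO 2 h arrays, which lay above its DMSO 36 h values given above on every array. It fell by 0.47 ± 0.09 on the log2 scale (SE; limma adjusted p = 0.0153), a call lost without DMSO 36 h replicate 1 (0.0511) or 2 (0.0612). The other Rps3 probe gave -0.17 and was not called (limma adjusted p = 0.431). Rplp0 gave -0.54 ± 0.12 and Rpl27a -0.38 ± 0.09, neither called (limma adjusted p = 0.0544 for both). Their second probes gave -0.18 for Rplp0 and -0.43 for Rpl27a, so the probes of Rplp0 disagree in size. Rpl27a read 0.26, 0.04, -0.04 and 0.19 on the DMSO 2 h arrays, all above its DMSO 36 h values. With probes averaged per gene, Rps3 (-0.32, limma adjusted p = 0.0466), Rpl27a (-0.40, 0.0447) and Rpl36a (-0.41, 0.0487) were called lower, against 0.896% of all genes.

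In dex cells 0 of 77 probes were called from 2 to 36 h, against 1.68% of all (limma). At an unadjusted p under 0.05 there were 5 (13.3% of all probes), 3 of them higher. The median was 0.03 and 42 of 77 probes were above 0 (54.5%, against 50.6% of all). Rps3 gave -0.06 ± 0.09 (95% interval -0.25 to 0.13), Rpl27a 0.24 ± 0.09 and Rplp0 0.27 ± 0.12 (limma adjusted p = 0.836, 0.215 and 0.333). Rpl27a was the 1 member whose dex 2 h and 36 h arrays did not overlap (11.8% of all probes). The difference between the time courses of dex and DMSO cells is the same contrast as that between the dex effects given above. The comparisons at 36 h and over time in DMSO share the DMSO 36 h arrays with opposite sign, so a low value there raises the first and lowers the second, and they are not independent readings.

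The arrays of a group did not move evenly. The median over the 77 probes was 0.05, 0.21, 0.17 and 0.09 on the DMSO 2 h arrays, 0.28, -0.08, 0.11 and 0.17 on the dex 2 h arrays, -0.08, -0.12, -0.06 and -0.07 on the DMSO 36 h arrays and 0.19, -0.05, 0.22 and 0.08 on the dex 36 h arrays. The DMSO 36 h arrays lay closest together (-0.08 ± 0.03, SD, n = 4), and the dex 36 h arrays (0.11 ± 0.12) ranged from just above their level to well above it. Within dex at 36 h, replicate 3 was the highest array for 43 of 77 probes (32.6% of all probes) and for 9 of the 10 called ones, and replicate 2 the lowest for 44 (30.4% of all). Within dex at 2 h, replicate 1 was highest for 49 (28.4% of all) and replicate 2 lowest for 56 (34% of all). The count of called probes at 36 h changed when single arrays were left out: it was 18 without dex 36 h replicate 2 (when 11.8% of all probes were called), 5 without replicate 3 (5.21%), 3 without replicate 1 (4.87%), 5 without DMSO 36 h replicate 1 (5.12%) and 3 without DMSO 36 h replicate 2 (4.95%), with 10 on all arrays (8.83%). The share of all probes called moved the same way in each of these refits. Rplp0 on both probes and the first Rpl27a probe were called at 36 h in each of these fits.

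**Figure D5:**
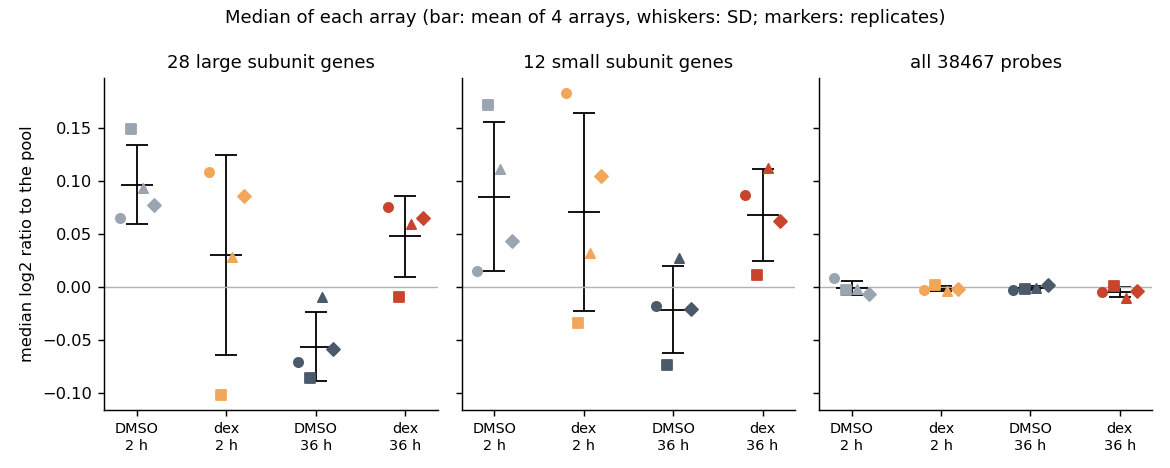
Median log2 ratio to the pool (y axis) on each array over the 28 large subunit genes, the 12 small subunit genes (probes averaged per gene) and all 38467 probes, by group (x axis); bars are the mean of 4 arrays, whiskers the SD and symbols replicates 1 to 4. By the mean of 4 arrays both subunits are lowest in DMSO at 36 h (array medians -0.09 to 0.03), while the median of all probes stays near 0 on every array. As a single array, dex 2 h replicate 2 lies below most or all of these (-0.10 for the large subunit, -0.03 for the small).

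The arrays of 2 h were noisier than those of 36 h, with a residual SD per array of 0.168 to 0.435 against 0.108 to 0.205. The DMSO 2 h arrays correlated weakly with each other, with means of 0.07, 0.14, 0.20 and -0.10 for replicates 1 to 4. In DMSO at 36 h these means were 0.56 to 0.64. The lowest mean and the largest residual SD (0.435) were those of DMSO 2 h replicate 4. With that array left out, 11 member probes were called at 36 h, 0 at 2 h and 2 over time in DMSO. Of preadipocyte and fibroblast markers, 5 of 8 genes were lower with dex than with DMSO at 36 h (Col1a1, Col1a2, Col3a1, Pdgfrb and Dlk1). The share of all genes with a called probe was 11.7%, and the median of the markers was -0.45. At 2 h, 1 of the 8 was called, Pdgfrb, which was lower (-0.74, limma adjusted p = 1.06e-04), against 3.18% of all genes. From 2 to 36 h in dex cells, 0 of the 8 were called, with a median of -0.09. Over time in DMSO, 1 of the 8 was called higher (Col1a1, 0.69, limma adjusted p = 0.0037), with a median of 0.15 and 5 at an unadjusted p under 0.05. Of other cell types, 0 of 6 macrophage, 0 of 5 endothelial and 1 of 5 epithelial markers (Krt8, higher at 1.15) were called at 36 h, and Krt8 fell by 0.48 over time in DMSO (limma adjusted p = 0.00504). A ratio to the pool cannot show whether a marker is present, and the part of these marker changes in the ribosomal protein values was not tested.

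Other messages with a TOP tract, mostly elongation and initiation factors, were set beside the family. This list and those below were drawn up with earlier results of these data known, so their shares are no independent evidence. Of 18 genes measured, 5 were called higher and 0 lower (27.8%, against 11.7% of all genes), with a median over genes of 0.21. Eif4b, a cofactor of the eIF4A helicase, was higher by 0.82 ± 0.11 (SE; limma adjusted p = 2.05e-04). Pabpc1, the poly(A)-binding protein, was higher by 0.72 ± 0.08 on the quoted probe, with all 3 of its probes called. Eef2, which drives translocation, was higher by 0.72 ± 0.08, with 10 of 17 probes called and the other 16 probes lower than the quoted one (0.14 to 0.57), and Eif3l by 0.61 ± 0.11, with both probes called (limma adjusted p = 1.49e-05 and 0.00166). The remaining called gene, Hnrnpa1, gave 0.46. Eef1a1, elongation factor 1A, gave 0.05 ± 0.15 (limma adjusted p = 0.955), so the list did not move as 1 block. At 2 h, 0 of the 18 genes were called (1 at an unadjusted p under 0.05, limma), with a median of 0.04.

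Factors that build ribosomes were mixed. Of 37 genes of ribosome biogenesis and ribosomal RNA synthesis, 7 were called higher and 1 lower at 36 h (21.6%, against 11.7% of all genes), with a median of 0.15. The largest were Polr1c, a subunit shared by RNA polymerases I and III (0.61 ± 0.09, limma adjusted p = 3.44e-04), Rrs1 (0.53 ± 0.09, 0.0012) and Ddx21 (0.48 ± 0.09, 0.00308), both of large subunit assembly or rRNA processing, and Tsr1 of small subunit assembly (0.41 ± 0.07, 0.00141). The gene that fell was Ubtf, the polymerase I upstream binding factor, at -0.37 ± 0.09 on 1 of 3 probes (limma adjusted p = 0.0118). At 2 h, 1 gene of the list was called, Wdr43 of the small subunit processome (0.39 ± 0.08, limma adjusted p = 0.0146), against 3.18% of all genes. The ribosomal proteins of mitochondria, which serve a separate ribosome, had 3 of 75 genes called higher and 1 lower at 36 h (5.33%, against 11.7% of all genes). Their median over genes was 0.09, against 0.05 for the cytosolic family, and over time in DMSO it was -0.10, against -0.13. A small shift in these directions was thus not particular to the cytosolic family. The 3 were Mrpl39 (0.61 ± 0.12), Mrpl4 (0.36 ± 0.08) and Mrps18b (0.33), and the lower one was Mrps15 on 1 probe (-0.45), whose other probes gave 0.16 and 0.20.

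Of 22 known regulators of the family, 2 were called at 2 h, Myc and Ddit4, both higher (9.09%, against 3.18% of all genes). With dex against DMSO, Myc was 2.15-fold higher at 2 h (1.10 ± 0.15 on the log2 scale, limma adjusted p = 2.89e-04). At 36 h it was 3.48-fold higher (1.80 ± 0.15, limma adjusted p = 8.20e-07). Both of its probes were called at each time, the second at 0.94 and 0.68. From 2 to 36 h the quoted Myc probe gave -0.82 in DMSO (limma adjusted p = 0.0115) and -0.13 in dex (0.774). The second Myc probe gave -0.25 in DMSO and -0.51 in dex, neither called. Ddit4, an inhibitor of mTOR complex 1 and a known glucocorticoid target, was higher with dex than with DMSO by 1.52 ± 0.13 at 2 h and 2.20 ± 0.13 at 36 h (limma adjusted p = 4.33e-06 and 2.70e-08). Eif4ebp2, a repressor of cap-dependent initiation, was called at 36 h alone (0.67 ± 0.07, limma adjusted p = 1.50e-05), and for it the 2 effects differed by 0.66 ± 0.10 (limma adjusted p = 0.00165). These were the regulators called at 36 h, 3 of 22 (13.6%, against 11.7% of all genes). Larp1, the protein that binds TOP tracts, was not called at 36 h (-0.25 ± 0.11, limma adjusted p = 0.207). From 2 to 36 h in DMSO, 2 of the 22 were called, both lower (9.09%, against 1.26% of all genes). These were Myc and Eif4ebp2 (-0.36, limma adjusted p = 0.0236). Over time in dex, 3 of the 22 were called higher and 1 lower (18.2%, against 2.43% of all genes). The higher ones were Rps6ka3 (0.50, limma adjusted p = 0.0278), Sp1 (0.44, 0.0335) and Eif4ebp2 (0.30, 0.0462), each on 1 of 2 probes. Akt1s1 was lower (-0.28, limma adjusted p = 0.0437).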

How the data were processed

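Each value that the authors deposited is a log2 ratio of the Cy5 sample to the Cy3 pool, with the base assumed. The submitters' processing notes name limma. The sources used here do not give the background correction or the scanner. They hold 38467 probes on 16 arrays, with no intensity, so background and saturation cannot be read, and the 4 arrays per group limit the precision. Missing values (131 on 3 arrays) touched no member probe. Group means were fitted to the values as deposited with limma 3.58.1 (R 4.3.3; lmFit, eBayes, no covariates). A probe was called at a Benjamini-Hochberg adjusted p under 0.05 over all probes, after a check on simulated data. Gene symbols come from the platform annotation, updated by RefSeq (GRCm38.p6); 29456 probes name 1 gene, 760 several and 8251 none, and all 77 member probes matched.

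Members and gene lists were chosen with earlier results of these data known. Named were the genes of up to 8 called probes with the largest change per comparison and direction, the stalk, 5S RNP and paralog genes, Myc, and up to 4 called genes per other list and dex comparison. The quoted probe of a gene has the smallest p in the F test of both dex contrasts. No array batch is recorded in the sources used here. P-values measure the spread between these samples, and the labels do not say how cultures were separated. Alternatives were quantile and scale normalisation, array weights, fewer arrays, a replicate block, the log-odds rule of the series' design text, complete probes, gene means, a robust prior and each array left out; the median over genes was added after the data were seen.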

Additional observations from a re-analysis of the deposited data

Results flagged for a closer look

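The effect of dex was larger at 36 h than at 2 h by 0.81 (log2) for Rplp0 and by 0.62 for Rpl27a, each on 1 of 2 probes, by the limma test of the difference itself given above.

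Rpl7l1, a paralog of Rpl7 with a role in pre-ribosomes, stood out on 1 array: its quoted probe read 0.88 on dex 2 h replicate 2, while the other 3 dex 2 h arrays lay between -0.13 and -0.03. This was 1 array among 72 groups of 4 tested with Dixon's test, and chance alone marks about 1 in 20 groups.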

How the results depend on the processing

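Dim probes cannot be set aside without intensities, and 4 arrays a group leave wide intervals. The median difference of the members kept its sign in every setting at 36 h (0.05 to 0.21), for the difference between the dex effects and over time in DMSO. At 2 h it ran from -0.06 to 0.04 and over time in dex from -0.04 to 0.10, changing sign in several settings. No member probe was called for dex at 2 h in any of 25 settings. The number called at 36 h, 10 on all arrays, was 40 with array weights (35 higher and 5 lower, when 38.4% of all probes were called), 3 with the log-odds rule (3.8%) and 5 genes with probes averaged per gene (9.16%); leaving out 1 array gave 3 to 18. For the difference between the 2 dex effects, 2 probes became 4 with quantile (5.26% of all probes called, against 2.4%) and with scale normalisation (5.21%) and 7 with array weights (6.77%), and leaving out 1 array gave 2 to 4. Over time in DMSO, 1 probe (0.816% of all) became 5 with quantile normalisation (2.77%), 4 with scale normalisation (2.41%), 4 with array weights (1.68%), 3 with the log-odds rule (0.873%) and 3 genes with averaged probes (1.12%); leaving out 1 array gave 0 to 3, with 0 without DMSO 36 h replicate 1 or replicate 2, where Rps3 was lost, and 3 without dex 36 h replicate 3. Over time in dex, 0 (1.68% of all) became 1 with quantile normalisation (2.92%), 1 with scale normalisation (3.28%) and 7 with array weights (14.7%), and leaving out 1 array gave 0 to 0. Shares in brackets are of all probes, or of all genes for averaged probes. The cause was not tested for any of these.

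Rplp0 (both probes) and Rpl27a (1 probe) were called at 36 h in each of the 25 settings. Of the other called probes, that of Rpl13a kept its call in 11 and the rest in 18 to 22; the arrays that end each call are named above. Fitting only the arrays compared gave Rps3 over time in DMSO an adjusted p of 0.115 (limma). Same replicate numbers gave deviations that correlated from -0.10 to 0.26 between dex and DMSO at 2 h and from -0.08 to 0.34 at 36 h. So few correlations, of mixed sign, cannot decide whether the numbers pair the arrays, and the main fit took the arrays as unpaired. With a replicate block, 10 probes were called at 36 h (9 of them shared with the fit without it), 0 at 2 h, 2 for the difference between the effects, 1 over time in DMSO and 0 over time in dex.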
